A study of Mus musculus with 16 samples.

Results

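R-loops at the promoters of protein-coding genes were examined in peak lists of DNA:RNA hybrid immunoprecipitation sequencing (DRIP-seq) from mouse NIH/3T3 cells, an embryonic fibroblast line. A promoter peak was a peak whose summit lay within 1000 bp of the 5' end of a protein-coding gene of chromosomes 1 to 19 or X (GENCODE M21 annotation, genome build GRCm38). Of 76752 peaks on these chromosomes, 2557 met this rule. They merged into 1429 promoter regions, of 50279 merged regions in all, and touched the promoters of 1484 of 21755 protein-coding genes. The cells were wild type (WT) or carried a CRISPR-Cas9 knockout (KO) of Xpo4, which encodes the nuclear export receptor exportin 4, and both genotypes shared the parent line. The sources used here give the KO as a cell line and do not say whether the replicates were separate cultures, so p-values measure only the spread between these libraries. Before hybrids were pulled down with the antibody S9.6, genomic DNA was cut by 4 restriction enzymes (AluI, DdeI, MboI, MseI). The fragments were then treated with RNase R, an enzyme that digests linear RNA (RNase R+), or given its buffer only (RNase R-). Each of the 4 groups (KO RNase R-, KO RNase R+, WT RNase R-, WT RNase R+) had 2 replicate libraries. Input libraries were not analysed here.

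An R-loop forms when RNA pairs with one strand of the DNA and leaves the other strand single. R-loops are known to form where RNA polymerase II leaves the promoter, since a nascent transcript rich in G pairs stably with its C-rich template. RNase H enzymes and helicases such as Dhx9 and Senataxin remove them. In the study's terms, R-loops that remain after RNase R digestion are ciR-loops, which hold circular RNA, and the question was whether loss of XPO4 alters where R-loops and ciR-loops lie.

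No peak was shared, row for row, by 2 replicates (0 in each group). The sequencing depth cannot be read from the lists. The paper's reporting summary gives both KO RNase R- immunoprecipitates more uniquely mapped reads than either WT RNase R- one, so depth and genotype cannot be told apart there. With RNase R, the read counts of the WT replicates lie on both sides of those of KO. The expected level of fragments per position, recovered from the fold enrichment and p of each peak, had a floor of 0.843 to 0.924 in the 4 KO lists and of 0.425 to 0.558 in the 4 WT lists. Every KO list thus had a higher background than every WT list, and background and genotype cannot be told apart in a count of peaks.

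The windows around 3 summits show what kinds of promoter carried peaks. Each is the 201 bases around the summit with the highest fold enrichment, read 5′ to 3′ on the strand of the named gene from GRCm38, with runs of at least 4 G in capitals. Eif4a1 had the strongest promoter peak of the KO RNase R- lists, Wdr26 was the strongest promoter called in both KO RNase R+ lists and in neither KO RNase R- list, and Gm10800 was called in all 8 lists. The Wdr26 summits lay 997 and 987 bp past the 5' end, at the edge of the 1000 bp window.
Eif4a1, chr11:69671358-69671558, minus strand: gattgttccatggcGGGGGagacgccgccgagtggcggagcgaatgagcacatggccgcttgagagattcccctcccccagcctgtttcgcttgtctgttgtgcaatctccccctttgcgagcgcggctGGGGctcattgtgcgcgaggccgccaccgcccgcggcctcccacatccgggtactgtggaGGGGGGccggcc
Wdr26, chr1:181210904-181211104, minus strand: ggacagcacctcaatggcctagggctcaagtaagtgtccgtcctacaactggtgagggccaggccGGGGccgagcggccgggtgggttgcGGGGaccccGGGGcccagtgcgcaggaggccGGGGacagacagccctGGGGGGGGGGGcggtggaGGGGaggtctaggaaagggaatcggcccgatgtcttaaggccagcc
Gm10800, chr2:98666782-98666982, minus strand: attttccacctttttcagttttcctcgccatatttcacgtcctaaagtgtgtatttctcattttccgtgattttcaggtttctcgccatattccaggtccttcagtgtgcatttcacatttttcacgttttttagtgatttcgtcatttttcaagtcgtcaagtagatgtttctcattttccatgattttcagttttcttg
The Wdr26 window held 6 runs of G and was 70.1% G and C, and the Eif4a1 window held 3 such runs and was 68.2% G and C. Runs of at least 4 C, not in capitals, numbered 1 in the Wdr26 window and 3 in the Eif4a1 window. Eif4a1 thus held as many runs of C as of G. The Gm10800 window was 35.8% G and C, without a run of G.

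Promoters were called far more often in KO than in WT cells. Without RNase R, 944 and 1141 genes had a promoter peak in the KO replicates, compared with 44 and 38 in the WT replicates. With RNase R, 288 and 220 genes were called in KO and 4 and 5 in WT. The groups did not overlap. Of the WT RNase R+ promoter peaks, 4 of 4 and 4 of 5 lay at over 3 times the background, so the ratio with RNase R rests on these. The KO/WT ratio of geometric means was 25.4 without RNase R (log2 ratio 4.67) and 56.3 with it (log2 ratio 5.81), where all peaks of the same chromosomes differed by 10.2-fold and 20.5-fold. Counted as peaks, promoters differed by 23.6-fold and 53.6-fold, and the 3' ends of genes by 20.6-fold and 30.0-fold. The exact permutation test of 2 libraries against 2 gave p = 0.333 for each treatment, the smallest value it can reach, and p = 0.0556 over both treatments, again the smallest possible (two-sided, Benjamini-Hochberg adjusted p = 0.125 over 9 tests), so that no adjusted value under 0.05 was within reach. With the KO heights and expected levels scaled to the WT background, 795 and 837 promoters remained called in KO RNase R- and 161 and 171 in KO RNase R+. This scaling used the background floor and not the number of reads.

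**Figure D1:**
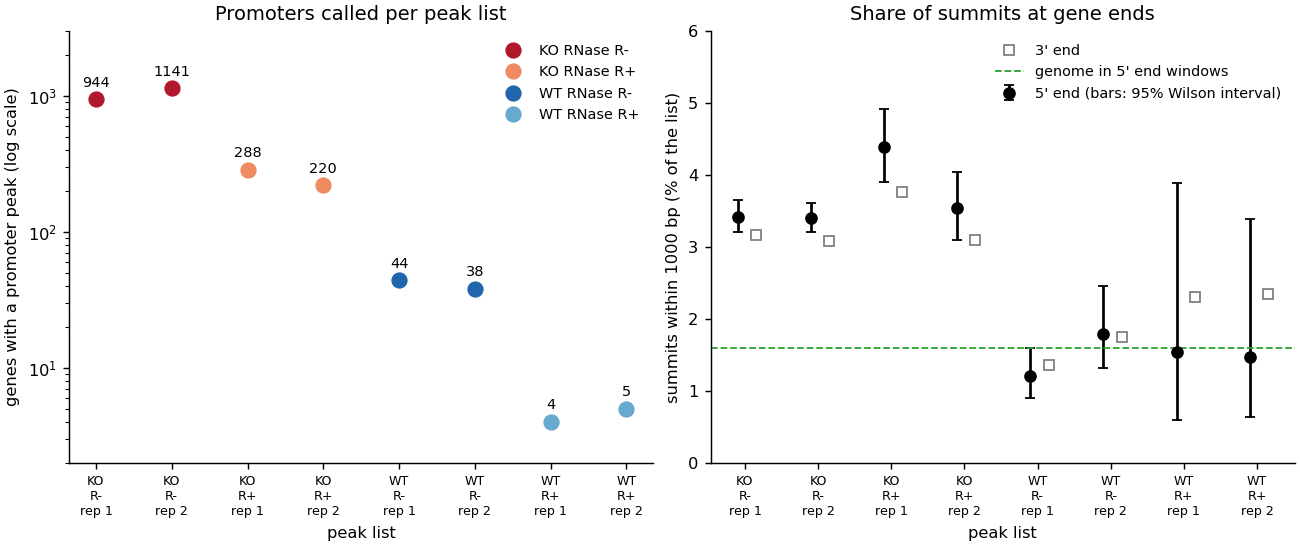
Left, genes with a promoter peak in each of the 8 lists (points, log scale): 944 and 1141 in KO RNase R- and 44 and 38 in WT RNase R-. Right, percent of each list's summits within 1000 bp of a 5' end (filled, bars are 95% Wilson intervals) or a 3' end (open squares), with the share of the genome in 5' end windows (dashed). The 4 KO lists lie above the dashed line at both ends of genes.

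The share of summits at promoters, as a percentage of each list's own summits, was 3.41 ± 0.0147% in KO RNase R-, 3.96 ± 0.597% in KO RNase R+, 1.50 ± 0.418% in WT RNase R- and 1.50 ± 0.048% in WT RNase R+ (SD, n = 2 each). Promoter windows hold 1.60% of the genome's known bases, so the KO lists had 2.13 to 2.74 times this share and the WT lists 0.752 to 1.12 times. The KO share was higher by 2.19 percentage points (stratified exact permutation test, p = 0.0556, adjusted p = 0.125), with all 4 KO libraries above all 4 WT libraries. With a window of 500 bp the difference was 0.834 points. Among the 2117 strongest peaks of each RNase R- list, promoters held 8.88 and 9.26% for KO, compared with 1.56 and 1.79% for WT, a wider gap than over whole lists.

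The 3' ends of the same genes had shares close to those of the 5' ends. A summit within 1000 bp of both a 5' and a 3' end, as in short genes, counted at both, so the counts are not disjoint. In KO RNase R- 894 and 1086 summits lay at 5' ends and 827 and 986 at 3' ends, a ratio of 1.08 and 1.101. The ratio was 1.17 and 1.14 in KO RNase R+, 0.885 and 1.03 in WT RNase R-, and 0.667 and 0.625 in WT RNase R+, where it rests on 4 and 5 promoter summits. Over the 8 libraries the mean log2 ratio was -0.09 (exact sign-flip test, two-sided, p = 0.492), and its direction turned to 0.12 with a window of 500 bp (p = 0.328).

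Per gene, replicates agreed on the stronger promoters. In KO RNase R- 1388 genes (6.38% of all) were called in either replicate and 697 (3.2%) in both. Of the genes with a fold enrichment (summit height over the expected level, each with 1 added by the peak caller) of 10 or more, 224 of 232 in replicate 1 were also called in replicate 2, and 255 of 284 in replicate 2 were also called in replicate 1. Under 6-fold these counts were 135 of 238 and 97 of 286. The 697 genes had a mean fold enrichment from 1.78 to 59.5 with a median of 8.45, and their 2 values lay within a factor of 2 for 675 genes. In KO RNase R+ 370 genes (1.7%) were called in either replicate and 138 (0.634%) in both. In WT RNase R- these counts were 67 (0.308%) and 15 (0.0689%), and in WT RNase R+ 5 (0.023%) and 4 (0.0184%).

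Of the 1429 promoter regions, 628 (43.9%) held a peak in both KO RNase R- lists and in neither WT RNase R- list, against a background of 25.7% of all 50279 merged regions. The opposite pattern, both WT RNase R- lists and neither KO RNase R- list, was met by 7 promoter regions (0.49%) and 0.378% of all regions. Both KO RNase R- lists, whatever the WT lists held, had 644 promoter regions (45.1%) and 28% of all regions. A KO list and a WT list shared 34 promoter regions (2.38%), compared with 5.06% of all regions, and 31 (2.17%) were in a WT list and no KO list, compared with 5.98%. A single list held 714 promoter regions (50%), where 63.9% of all regions were in 1 list alone. By gene, 1415 promoters were called in KO lists alone, 38 in both genotypes and 31 in WT lists alone.

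Eif4a1, which had the strongest promoter peak in KO cells, encodes the RNA helicase of the cap-binding initiation complex. Its promoter peak (chr11:69670737-69672307 in KO RNase R- replicate 1) had fold enrichments of 66.7 and 52.3 in KO RNase R- and 25.1 and 17.1 in KO RNase R+, with no peak in WT. Its summits lay 965 to 994 bp past the 5' end, in an intron in 3 lists and in an exon of the gene in 1. Both untreated values lay above both treated ones.

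Kctd10 and Ube3b, a ubiquitin ligase adaptor and a ubiquitin ligase, are transcribed away from each other and shared one peak. It had fold enrichments of 45.6 and 46.9 in KO RNase R- and 16.1 and 24.9 in KO RNase R+. Kpnb1, the import receptor importin beta, had values of 39.6 and 43.9 in KO RNase R- and 26.5 and 14.8 in KO RNase R+, with its summit at -344 bp from the 5' end in 3 of the 4 lists, between genes. These promoters were not called in any WT list.

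The initiation factor gene Eif4b had fold enrichments of 27.4 and 39.8 in KO RNase R- and 24.6 and 14.8 in KO RNase R+. The ribosomal protein gene Rps16 had values of 33.0 and 38.4 in KO RNase R- and 17.4 and 17.2 in KO RNase R+, with its summits 433 to 548 bp past the 5' end. Mtch1, a mitochondrial membrane protein, had values of 24.8 and 30.7 in KO RNase R- and 25.3 and 11.7 in KO RNase R+. The divergent pair March7 and Baz2b, a ubiquitin ligase and a bromodomain protein, shared a peak of 39.5 and 27.4 in KO RNase R- and 25.5 and 10.7 in KO RNase R+. Among these 4 promoters the RNase R- and RNase R+ values overlapped at Mtch1, where replicate 1 of KO RNase R+ lay above replicate 1 of KO RNase R-.

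**Figure D2:**
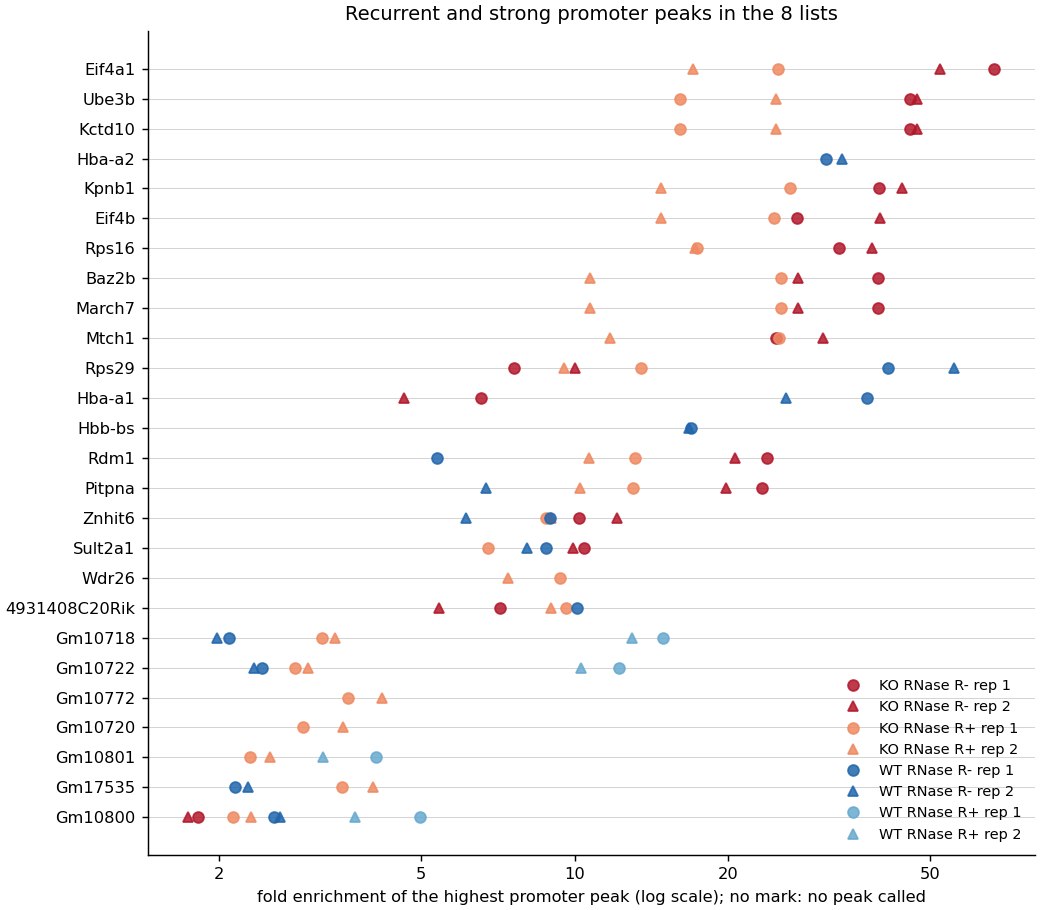
Fold enrichment of the highest promoter peak (log scale) of recurrent and strong promoters in each of the 8 lists, where a missing mark means that no peak was called. Eif4a1, with values from 17.1 to 66.7 in the KO lists, leads in the KO RNase R- lists. In KO RNase R+ the highest values are those of Kpnb1 in replicate 1 (26.5) and of Kctd10 and Ube3b in replicate 2 (24.9). Rps29, Hba-a1, Hba-a2 and Hbb-bs are highest in the WT RNase R- lists.

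The promoters found in most lists were a different set. Gm10800, a predicted gene on chromosome 2, was called in all 8 lists. Its fold enrichment was 1.82 and 1.74 in KO RNase R-, 2.13 and 2.32 in KO RNase R+, 2.57 and 2.64 in WT RNase R-, and 4.97 and 3.70 in WT RNase R+. The summit height there was at least 47080 fragments in every list over an expected level of at least 14943, far above 3 times the background. Gm10718 and Gm10722, predicted genes at the start of the chromosome 9 assembly, were each called in 6 lists, again at such levels. Gm10718 had values of 14.9 and 12.96 in WT RNase R+ and of 2.09 and 1.99 in WT RNase R-. Such levels are those of sequences that exist in many copies, for which the assignment of reads to one place is uncertain. Peaks at over 3 times the background made up 6.08 to 9.57% of promoter peaks in the KO lists, 28.3 and 26.3% in WT RNase R-, and 4 of 4 and 4 of 5 in WT RNase R+.

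Znhit6, which encodes a box C/D snoRNP assembly factor, was called in 6 lists with the summit in its coding sequence. It had fold enrichments of 10.2 and 12.1 in KO RNase R-, 8.79 and 8.98 in KO RNase R+, and 8.94 and 6.11 in WT RNase R-. Pitpna, a phosphatidylinositol transfer protein, had 23.3 and 19.9 in KO RNase R-, 13.01 and 10.2 in KO RNase R+ and 6.71 in WT RNase R- replicate 2. Rdm1, 4931408C20Rik and Sult2a1 were called in 5 lists each. For Sult2a1, a hepatic sulfotransferase gene, the peak was upstream, with values of 10.4 and 9.93 in KO RNase R-, 6.76 in KO RNase R+ replicate 1 and 8.79 and 8.06 in WT RNase R-.

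A few promoters had a higher fold enrichment in WT RNase R- than in KO cells. The Rps29 peak had fold enrichments of 41.2 and 55.7 in WT RNase R-, compared with 7.60 and 10.0 in KO RNase R- and 13.5 and 9.52 in KO RNase R+. The summit heights were 60 and 82 fragments in WT RNase R- and 13 to 25 in KO. All 6 summits lay at -210 to -288 bp from the 5' end of Rps29, inside Rn7s1, the gene of the RNA of the signal recognition particle, which is transcribed the other way from the plus strand. Summits in exons of small RNA genes made up 2 of 46 and 3 of 38 promoter summits in WT RNase R-, and 2 of 894 and 1 of 1086 in KO RNase R-. In WT RNase R- replicate 2 they also lay in Rpph1, the RNA of RNase P, at the start of Ccnb1ip1.

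Globin genes, which mark red blood cells and are not expected in fibroblasts, carried strong peaks within the promoter window in WT RNase R- cells. Hba-a2 had fold enrichments of 31.2 and 33.6 in WT RNase R- and was called in no other list. Hba-a1 had 37.6 and 26.0 in WT RNase R- with the summit 840 and 842 bp past the 5' end in coding sequence. In KO RNase R- it had a weaker peak upstream, of 6.54 and 4.63. Hbb-bs had 16.9 and 16.8 in WT RNase R- alone, also in coding sequence, and a second peak further into the gene. Hba-a1 and Hba-a2 are near-identical copies, so the split of reads between them is uncertain. Both genes (chr11:32283511-32284465 and chr11:32296489-32297298) are shorter than 1000 bp, so the promoter window reaches past their 3' ends. Their WT RNase R- summits, at 32284351 and 32284353 in Hba-a1 and at 32297172 in Hba-a2, lay nearer the 3' end than the 5' end. Of the 16 liver and blood genes, 2 had a peak within the gene or 1000 bp of it in each WT RNase R- list, against 4 and 5 in the KO RNase R- lists, where the highest fold among these genes was 9.36, and 0 in the WT RNase R+ lists. The liver and blood genes with no peak in any list included Alb and Apoa1. What part these markers have in the WT lists was not tested.

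Immediate early, splicing factor, housekeeping and ribosomal protein genes had the highest shares of promoters called in KO RNase R- among the gene lists. Over all protein-coding genes, 6.38% had a promoter peak in either KO RNase R- replicate, 3.2% in both and 1.7% in either KO RNase R+ replicate. By replicate, the share was 4.34 and 5.24% in KO RNase R- and 1.32 and 1.01% in KO RNase R+. Each list is given by its counts beside these values, without a test. All genes had a median promoter GC content of 51.3%. It was 57.0% for immediate early, 55.4% for splicing factor, 54.5% for housekeeping and 52.4% for ribosomal protein genes. The part of GC content in the shares of these lists was not tested.

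Of 83 ribosomal protein genes, 20 and 22 were called in KO RNase R-, 16 of them in both replicates, and 11 and 6 in KO RNase R+. Those 16 had a median fold enrichment of 12.8, beside 8.45 for all 697 genes called in both. Rpl36, Rpl8, Rpl19, Rpl38 and Rps29 were called with Rps16 in all 4 KO lists, and Rpl36 had values of 16.8 and 26.2 in KO RNase R- and 14.2 and 12.3 in KO RNase R+. In WT lists Rps29 was the 1 member called.

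Of 23 housekeeping genes, 8 were called in both KO RNase R- lists, and 4 and 3 in KO RNase R+. They included Actb and Actg1 (cytoplasmic actins), Npm1 and Ncl (nucleolar proteins), Hprt, Tubb5 and Tuba1a. Npm1 had fold enrichments of 24.2 and 18.4 in KO RNase R- and 8.59 and 7.20 in KO RNase R+.

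Of 21 immediate early genes, which respond within minutes to serum or stress, 10 and 7 were called in KO RNase R- and 2 and 1 in KO RNase R+. Fos, a subunit of the AP-1 transcription factor, had values of 16.8 and 21.1 in KO RNase R-. Fosl2, of the same family, had 10.6 and 15.3 in KO RNase R- and 9.18 and 13.2 in KO RNase R+, so the treated and untreated values overlapped. Ier2, Ier3, Egr3, Klf4 and Zfp36 were the others called in both KO RNase R- replicates.

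Of 23 splicing factor genes, 6 and 11 were called in KO RNase R-, compared with 1 and 0 in KO RNase R+. Hnrnpu, a nuclear RNA-binding protein, had fold enrichments of 26.0 and 21.5 in KO RNase R- and 10.6 in KO RNase R+ replicate 1. Hnrnpa2b1, Snrpb, Srsf5, Srsf6 and Srsf7 were also in both KO RNase R- lists, and Srsf5 was called in WT RNase R- replicate 1 as well, with 8.11.

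Among 23 genes of R-loop removal and prevention, 1 and 3 were called in KO RNase R-, where all genes had 4.34 and 5.24%. Counts this small do not set the list apart from all genes. Dhx9, a helicase that unwinds RNA:DNA hybrids, had 26.0 and 13.9 in KO RNase R- and 7.00 in KO RNase R+ replicate 1. Among 11 genes of nuclear export, 2 were called in each KO RNase R- replicate and 1 in each KO RNase R+ replicate. Ran, the GTPase that drives transport, had 21.1 and 27.8 in KO RNase R- and 4.32 in KO RNase R+ replicate 2. Xpo1, the main protein exporter, had 18.7 and 17.0 in KO RNase R-. Xpo4 itself had no promoter peak in any list. Within the Xpo4 gene there were 1 and 2 peaks in KO RNase R- and 0 in the other 6 lists, and a peak list of hybrids does not check the knockout.

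Of 24 fibroblast matrix genes 4 were called in each KO RNase R- replicate, 3 of them in both. Col1a1, the main collagen of fibroblasts, had 16.8 and 15.4 in KO RNase R- and 7.80 and 9.52 in KO RNase R+. Of 25 cell cycle genes Cdk4 and Ccnb1 were called in both KO RNase R- lists, and of 20 DNA damage response genes Mdm2 alone. Of 394 zinc finger protein genes 18 were called in both KO RNase R- lists, with Zfp160 at 19.8 and 22.0, and of 39 Hox genes 2.

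None of 20 neuron and muscle genes had a promoter peak in any list, where 6.38% of all genes had one in KO RNase R-. A list of 20 genes is too short to tell 0 from that share. Their median promoter GC content was 54.2%. Of 1135 olfactory receptor genes, 7 and 14 were called in KO RNase R-, and their median promoter GC content was 36.4%. Of the 16 liver and blood genes 1 (6.25%) was called in KO RNase R-, where all genes had 6.38%, and 2 (12.5%) in WT RNase R-, where all genes had 0.308%. Of 67 replication-dependent histone genes, which are short, intronless and highly expressed in S phase, 0 and 1 were called in KO RNase R-.

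**Figure D3:**
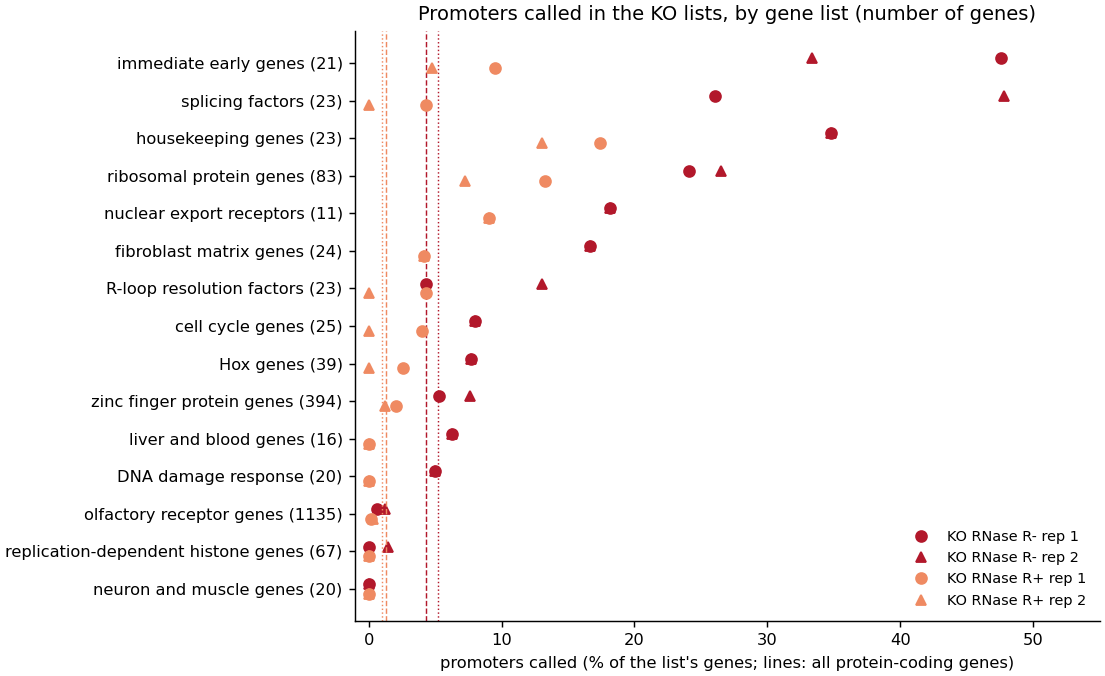
Percent of each gene list with a promoter peak in the 4 KO lists (circles, replicate 1, and triangles, replicate 2), with the number of genes in parentheses and lines for all protein-coding genes. In KO RNase R- immediate early, splicing factor, housekeeping and ribosomal protein genes lie right of the lines, while neuron and muscle, histone and olfactory receptor genes lie left of them.

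Within a promoter, KO summits lay mainly downstream of the 5' end. The share of promoter summits downstream was 69.4 and 67.5% in KO RNase R- and 71.6 and 68.4% in KO RNase R+. In WT RNase R- it was 41.3% (95% Wilson interval 28.3 to 55.7, 46 summits) and 55.3% (39.7 to 69.9, 38 summits). These intervals cover counting error only. KO RNase R- exceeded WT RNase R- by 20.1 percentage points (exact permutation test of 2 against 2, p = 0.333, the smallest possible), and by 22.9 points without peaks at over 3 times the background. Without WT RNase R- replicate 1 the difference was 13.2 points. The densest stretch in KO RNase R- ran from 400 to 600 bp past the 5' end, with 16.8% of promoter summits, and the 200 bp before the 5' end held 5.61%. The counts showed no step at the edge of the window. In KO RNase R- replicate 1, 80 summits lay in its outermost 100 bp and 92 in the 100 bp just outside it.

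By the annotation, 44.1 and 42.1% of KO RNase R- promoter summits lay in introns of protein-coding genes, 12.3 and 13.5% in coding sequence, 13.3 and 12.98% in untranslated parts of exons and 20.7 and 21.8% between genes. Of WT RNase R- summits, 23.9 and 28.9% lay in coding sequence and 17.4 and 23.7% in introns.

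**Figure D4:**
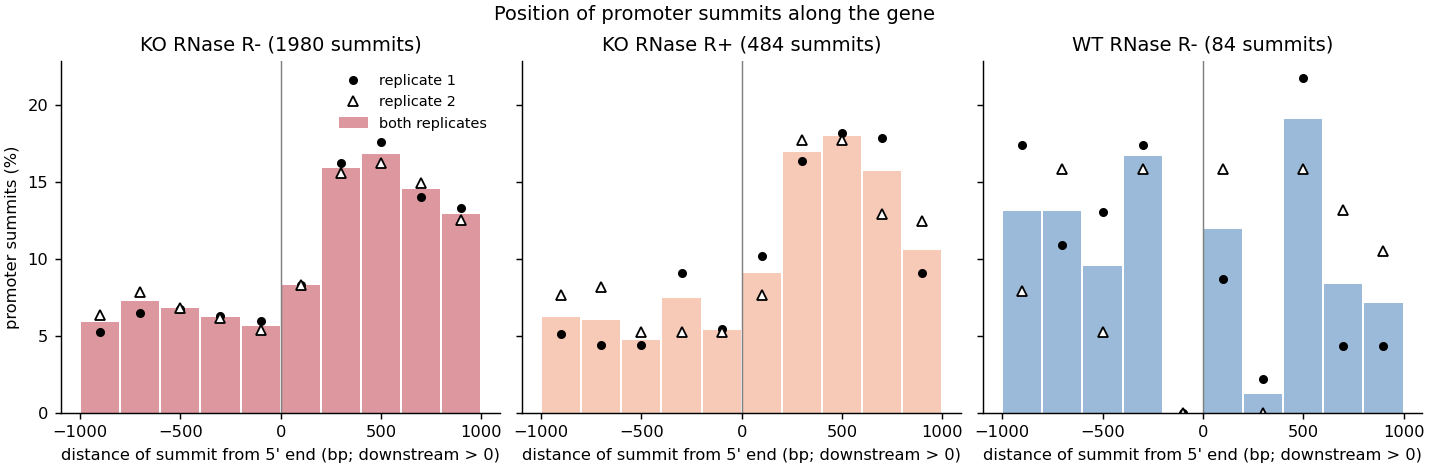
Percent of promoter summits in 200 bp steps of distance from the nearest 5' end (downstream is positive), for KO RNase R-, KO RNase R+ and WT RNase R-, with bars for both replicates together and marks for each. In KO the steps from 200 to 800 bp downstream are the tallest, with 16.8% of KO RNase R- summits from 400 to 600 bp.

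Promoter peaks of KO cells were rich in G and C. The median GC content within 100 bp of the summit was 60.2 and 59.2% in KO RNase R- and 62.2 and 58.7% in KO RNase R+, compared with 42.8 to 46.3% at the other peaks of these lists. Those of WT RNase R- had 44.5 and 44.3%, near the 42.8 and 43.8% of other peaks. KO RNase R- promoter peaks exceeded those of WT RNase R- by 15.3 percentage points (exact permutation test, p = 0.333, the smallest possible), and by 5.72 points among peaks of at least 10-fold enrichment.

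The G lay on the coding strand. GC skew, the excess of G over C on the strand of the gene divided by their sum, had a median of 0.25 and 0.24 at downstream summits of KO RNase R- and 0.26 and 0.28 in KO RNase R+, where all genes had a median of 0.04 in a window of the same 201 bases centred 500 bp downstream. A run of at least 4 G on the gene's strand (GGGG, one strand only) was found within 100 bp of 82.4 and 82.9% of downstream summits in KO RNase R-, and in 57.8% of all 21755 genes in that window. The same run on the other strand (CCCC on the gene's strand) was found in 52.1 and 53.3% of the downstream summits and in 53.4% of all genes. At upstream summits of KO RNase R- the medians of the skew were -0.05 and -0.02, and 41.2 and 43.1% held a run of G, near the 44.5% of all genes 500 bp upstream. In WT RNase R- 7 of 19 and 10 of 21 downstream summits held such a run.

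Across all promoters, those of high GC content were called most often in KO. With the 21755 genes split into 5 classes of equal size by GC content within 1000 bp of the 5' end, the share called in KO RNase R- went from 1.38 and 1.84% in the lowest class to 8.18 and 9.77% in the highest. In KO RNase R+ it went from 0.598 and 0.529% to 2.92 and 1.88%. In WT RNase R- the order ran the other way, from 0.368 and 0.345% (16 and 15 genes) to 0.0919 and 0.046% (4 and 2 genes). By GC skew in the 500 bp past the 5' end, the highest class stood apart in KO RNase R-, with 7.29 and 8.53%, and the other 4 classes lay between 3.19 and 4.92%.

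GC content and skew were not the same measure. Within the class of highest GC content, 9.98 and 11.9% of the genes of higher skew and 6.39 and 7.63% of those of lower skew were called in KO RNase R-. Promoters with fewer sites for the 4 restriction enzymes were also called more often. The class of fewest sites had 7.79 and 9.15% called in KO RNase R- and that of most sites 2.41 and 2.74%. Within the class of highest GC content these values were 9.40 and 11.1% for genes with fewer sites and 6.72 and 8.14% for those with more. The median distance from the start of a promoter peak to the nearest site was 2 bp in all 4 KO lists, 14.5 and 11 bp in WT RNase R-, and 84.5 and 177 bp in WT RNase R+. At the other peaks it was 2 bp in all 4 KO lists, 3 bp in each WT RNase R- list, and 102 and 92 bp in WT RNase R+. The long distance in WT RNase R+ was thus not particular to promoter peaks. The part of the digest in the sequence pattern was not tested beyond these values.

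**Figure D5:**
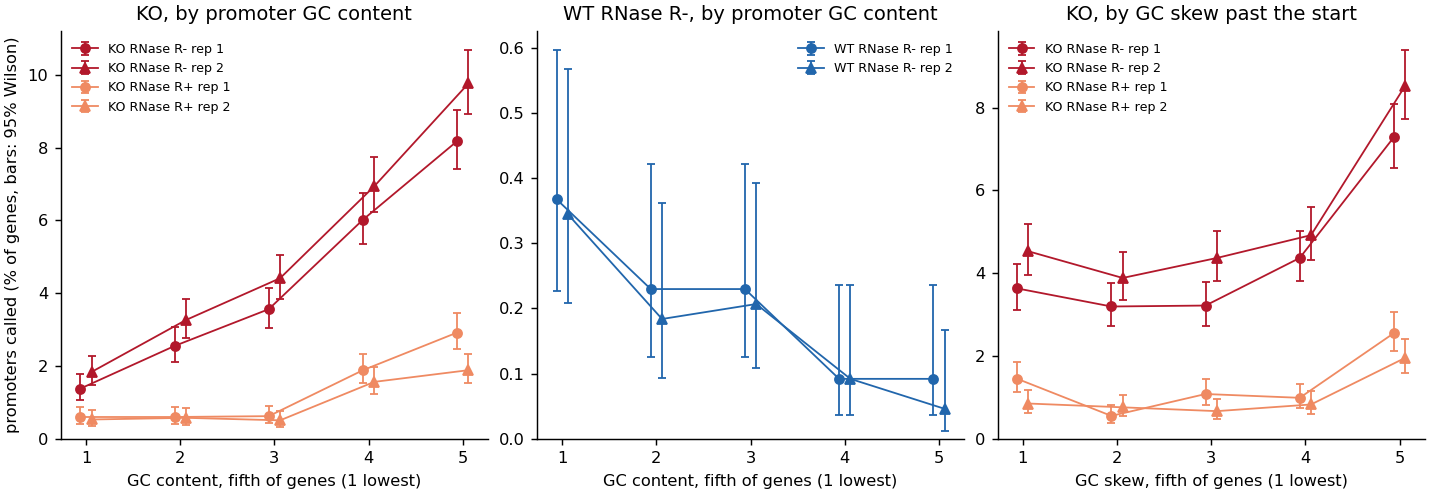
Percent of genes with a promoter peak in 5 equal classes of promoter GC content for the KO lists (left) and WT RNase R- (middle), and of GC skew past the 5' end for the KO lists (right), with 95% Wilson intervals as bars. The KO RNase R- share is highest in the class of highest GC content, at 8.18 and 9.77%, while that of WT RNase R- is lowest there, at 0.0919 and 0.046%, on a smaller scale.

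Genes with a divergent neighbour, whose 5' end lies on the other strand within 1000 bp upstream, were called at 6.86 and 8.00% of 1487 genes in KO RNase R-, and the remaining genes at 4.15 and 5.04%. One peak can serve both genes of such a pair, as at Kctd10 and Ube3b. By chromosome, the share called in either KO RNase R- replicate ranged from 2.85% on X and 3.85% on 2 to 9.74% on 19 and 10.5% on 17.

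Fewer promoters were called with RNase R, by a factor near that for all peaks. In KO the RNase R-/RNase R+ ratio of geometric means was 4.12 for genes with a promoter peak and 4.74 for all peaks, and in WT it was 9.14 and 9.57. The WT ratio for genes rests on 4 and 5 genes in WT RNase R+, with 4 promoter peaks in each list at multi-copy levels. Over both genotypes the log2 change with RNase R was -2.62 (stratified exact permutation test, p = 0.0556, the smallest possible, adjusted p = 0.125). Of the 370 genes called in KO RNase R+, 305 (82.4%) were also called in KO RNase R-, which is 22.0% of the 1388 genes called there. Among regions, 282 of 1429 promoter regions (19.7%) were found with and without RNase R in KO, compared with 12.6% of all merged regions, and 111 (7.77%) in all 4 KO lists, compared with 2.96%. For the 122 genes called in all 4 KO lists, the median fold enrichment was 14.9 and 16.5 in KO RNase R- and 9.23 and 8.36 in KO RNase R+. A set of 10 promoter regions (0.7%) was in both KO RNase R+ lists and neither KO RNase R- list, near the 0.607% of all regions. Wdr26, a subunit of a ubiquitin ligase complex, had the highest fold enrichment of these, 9.36 and 7.41 in KO RNase R+, with its summits 997 and 987 bp past the 5' end in an intron. That is the edge of the 1000 bp window, and a KO RNase R- peak with its summit just beyond would not count. Whether such a peak lay there was not examined. Predicted genes at multi-copy levels in the set of 10 regions included Gm10772, with 3.596 and 4.18 in KO RNase R+, and Gm17535, with 3.49 and 4.01.

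RNase R- promoter peaks overlapped an RNase R+ peak of their genotype more often than other peaks did. In KO 28.9 and 25.0% of promoter peaks and 18.1 and 16.4% of other peaks did so, and in WT 21.7 and 26.3% (10 of 46 and 10 of 38) against 3.68 and 6.30%. The mean difference was 14.3 percentage points, in the same direction in 4 of 4 libraries (exact sign-flip test, p = 0.125, the smallest possible, adjusted p = 0.188). By the same exact test it was 3.42 points (p = 0.5) without peaks at over 3 times the background and -2.16 points (p = 0.75) among peaks of at least 10-fold enrichment.

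Promoter peaks were wider than other peaks in all 8 libraries. Their median width was 315.5 and 319.5 bp in KO RNase R-, against 247 and 254 bp for other peaks, 334 and 324 bp in KO RNase R+ against 281 and 277 bp, 327 and 307 bp in WT RNase R- against 301 and 297 bp, and 3058 and 1032 bp in WT RNase R+, where it comes from the multi-copy regions, against 421.5 and 436 bp. The mean log2 ratio was 0.68 (exact sign-flip test, p = 0.00781, the smallest possible, adjusted p = 0.0703). Without WT RNase R+ replicate 1, whose 4 promoter peaks had the median of 3058 bp, it was 0.37. The fold enrichment of promoter peaks differed little. Its median was 7.28 and 7.38 in KO RNase R- against 6.94 and 6.86 at other peaks, and 6.32 and 6.41 in WT RNase R- against 6.56 and 6.88 (mean log2 ratio over 8 libraries 0.10, exact sign-flip test, p = 0.0859, adjusted p = 0.155).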

How the data were processed

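DRIP-seq peak lists of 8 immunoprecipitated libraries were used, grouped by the sample titles. The authors trimmed reads with cutadapt, aligned them to GRCm38 with Bowtie2, removed duplicates and reads without a unique position with SAMtools 1.1 (per the submitters' processing notes), and called peaks per replicate with MACS2 at a q limit of 0.001. The control library is not given in the sources used here. The deposited lists hold the fold enrichment as a ratio, the p and q values as −log10, and a score that the authors' caller made from q, which was not used here. Reads of unique position only, a digest by 4 enzymes and calling per replicate tie the lists to mappability, fragment ends and depth.

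The summit height and expected level were recovered from fold and −log10 p as the whole height that fits both under a Poisson distribution (tolerance 0.002, or a relative 0.0001), which held for every peak and was tested on simulated data. A gene's 5' end is that of its longest extent. Regions were merged with bedtools 2.31.1 and overlaps counted from 1 bp. Tests were exact, two-sided permutation or sign-flip tests over libraries (Python 3.11.15, scipy 1.17.1), adjusted by Benjamini-Hochberg over 9 tests. The smallest possible p is 0.333 for 2 libraries against 2, 0.0556 stratified by treatment or genotype, 0.125 over 4 libraries and 0.00781 over 8. The comparisons of summit position and of GC content between genotypes were added after the data were seen. Members, gene lists and rules were chosen with earlier results of these data known. Named genes were the 10 in most lists, the 6 strongest called in both replicates of each group, the 5 strongest called in WT RNase R- or in KO RNase R+ but not in KO RNase R-, and up to 4 per gene list. A promoter and a sequence that these rules select are not reported here. Genes given as list members beyond these were named after their values were seen. Alternatives covered windows of 500 and 2000 bp, transcript starts, overlap in place of summits, a fold of at least 10, multi-copy levels, scaling of KO to WT background, the strongest peaks, each library left out and a replicate block.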

Additional observations from a re-analysis of the deposited data

Results flagged for a closer look

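With RNase R, the ratio of summits at 5' ends to summits at 3' ends was higher in KO and lower in WT. In KO it was 1.08 and 1.101 in RNase R- and 1.17 and 1.14 in RNase R+, a difference of means of 0.0624. In WT it was 0.885 and 1.03 in RNase R- and 0.667 and 0.625 in RNase R+, a difference of means of -0.31. Both replicates of each genotype moved the same way. The difference between the genotypes was not tested. The WT RNase R+ values rest on 4 and 5 promoter summits, 4 of which in each list were at multi-copy levels.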

How the results depend on the processing

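No result reached an adjusted p of 0.05, and the design could not have reached it for the comparisons of genotype or treatment. The difference between genotypes in promoters called, in the share of summits, in summit position and in GC content kept its direction under every alternative that could be run. Its size did not: the difference in share ranged from 0.834 points with a window of 500 bp to 7.93 points among the strongest peaks, and that in GC content from 5.72 points among peaks of at least 10-fold enrichment to 23.01 points with a window of 500 bp. With windows of 500 bp the log2 ratio of 5' to 3' ends was 0.12 in place of -0.09. Among peaks of at least 10-fold enrichment the overlap with RNase R+ peaks was 2.16 points lower at promoters (-2.16) in place of 14.3 points higher. The log2 ratio of fold enrichment at promoter and other peaks passed an unadjusted p of 0.05 with a window of 2000 bp (0.10, exact sign-flip test, p = 0.0312) and without WT RNase R- replicate 2 (0.13), with a range of 0.0586 to 0.13 over the libraries left out. Without peaks at over 3 times the background, a WT RNase R+ list held no promoter peak, so the comparisons that use that list as a log2 number or median were not run. Replicate numbers pair the libraries by name alone: over the 122 promoters called in all 4 KO lists, the differences between replicates with and without RNase R correlated at -0.04, and the other pairs of groups shared 3 to 5 promoters. With the replicate block the genotype effect was 4.67 without RNase R, 5.81 with it and 5.24 over both, the RNase R effect -2.62 and the difference in share 2.19 points (exact sign-flip tests, p = 0.5, 0.5, 0.125, 0.125 and 0.125), and the block changed no call. The lists hold called peaks alone, so a promoter without a peak has no value, and the lower background of the WT lists cannot be told apart from genotype.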
